A study of Rattus norvegicus with 6 samples.

Results

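The mRNAs of the ribosomal proteins were compared between rat endometrial epithelial organoids (rEEOs) and rat bone marrow mesenchymal stem cells (rBMSCs). Members were chosen by gene symbol (Rpl, Rplp, Rps, Rpsa, Fau, Mrpl and Mrps names, without the Rps6k kinases) and by a sum of at least 10 expected counts over the libraries. The rule took 132 of the 13728 genes held, of which 70 carry cytosolic and 62 carry mitochondrial names. Bulk RNA-seq of oligo(dT)-selected mRNA was available for 3 rEEOs libraries and 3 rBMSCs libraries. The rEEOs had been grown in Matrigel from glandular fragments of the uterus of female Sprague-Dawley rats, in an expansion medium that contained Wnt3a, R-spondin-1, noggin, EGF, FGF10, A83-01, Y27632 and nicotinamide. The rBMSCs were purchased cells labeled with red fluorescent protein and were grown in DMEM/F12 with fetal bovine serum, so cell type and culture medium cannot be told apart. It is not stated whether the 3 libraries of a cell type came from separate animals or cultures, so p-values measure the spread between these libraries, which may be technical. No hormone treatment is given in the labels for these libraries.

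Every cell holds 2 kinds of ribosome. Cytosolic ribosomes translate the mRNAs of the nucleus, and their large (Rpl) and small (Rps) subunit proteins are encoded by nuclear genes that are among the most abundantly transcribed in growing cells. Many of their mRNAs begin with a C followed by a run of pyrimidines, the terminal oligopyrimidine (TOP) tract, through which mTORC1 and LARP1 control their translation. Mitochondrial ribosomes (mitoribosomes) translate the few mRNAs of the mitochondrial genome, which encode subunits of the respiratory chain. Their proteins (Mrpl and Mrps) are also made from nuclear genes and are imported into the organelle, and many of them have no bacterial counterpart. Both kinds of protein are needed in fixed proportions within a ribosome.

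The start sites are shown first, because their letters were not used to choose the members. RefSeq promoter windows of the GRCr8 assembly, from 250 bases before to 50 bases after the annotated start, were held for 100 members by gene ID (53 windows of 52 cytosolic genes and 50 windows of 48 mitochondrial genes). A TOP start was counted where a C followed by at least 4 pyrimidines began within 2 bases of the annotated start. It was found in 28 of 53 cytosolic windows (52.8%), in 3 of 50 mitochondrial windows (6%) and in 8.57% of all 33469 windows. With a tolerance of 0 bases it was found in 17 cytosolic windows (32.1%), so the count depends on how exactly the start is annotated. The following stretches run from 10 bases before to 20 bases after the annotated start, with the TOP tract in capitals, and were chosen for the most abundant, paralogous or most changed cytosolic members:
Rps27, chr2:177964587-177964616, minus strand: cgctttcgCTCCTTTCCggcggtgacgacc
Rpl22, chr5:168117951-168117980, plus strand: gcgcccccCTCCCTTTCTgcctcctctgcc
Rps18, chr20:4933735-4933764, plus strand: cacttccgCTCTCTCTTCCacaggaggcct
Rpl10, chrX:157205840-157205869, plus strand: gtgggagcgtCTCTTTTCCTCTggcgcggt
Rplp0, chr12:46718371-46718400, minus strand: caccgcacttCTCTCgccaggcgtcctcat
Rpl41, chr7:1563478-1563507, minus strand: ctcggaagtgacgacaccaagcacgccatt
Rps28, chr7:15311314-15311343, minus strand: ccctgctcacgtgactcctctccgctagat
Rps6, chr5:106420521-106420550, minus strand: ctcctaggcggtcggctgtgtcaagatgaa
Rps27, Rpl22, Rps18, Rpl10 and Rplp0 carry the tract at the start, whereas the windows of Rpl41, Rps28 and Rps6 hold no tract within 2 bases of the annotated start. The search began 2 bases before the annotated start, so a pyrimidine run that begins further upstream and crosses it was counted too. In Rpl22 the run begins upstream of the capitals, which mark only the part within the search. The median log2 fold change (rEEOs over rBMSCs) was 0.71 over the 28 tested cytosolic members with a TOP start by this rule. It was 0.74 over the 22 without one, with ranges of 0.39 to 1.05 and 0.08 to 1.67. Members without one by this rule may still carry a tract, where the annotated start is not exact. For the 18 tested members without a window it was 0.64.

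Other letters lay around the starts of mitochondrial members. On either strand, CCGGAAG, the core of the site of ETS factors, was found in 16 of 50 mitochondrial windows (32%) and in 17 of 53 cytosolic windows (32.1%), compared to 8.75% of all windows. It is shown in capitals in these stretches, which lie wholly upstream of the annotated start, for a called and an uncalled pair of members:
Mrpl36, chr1:31795167-31795218, minus strand: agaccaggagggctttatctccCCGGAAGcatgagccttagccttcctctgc
Mrps18a, chr9:22367389-22367440, minus strand: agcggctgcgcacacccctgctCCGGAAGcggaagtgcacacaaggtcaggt
Mrpl23, chr1:207116841-207116892, plus strand: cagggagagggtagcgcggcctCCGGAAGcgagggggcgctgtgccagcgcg
Mrpl27, chr10:80092262-80092313, plus strand: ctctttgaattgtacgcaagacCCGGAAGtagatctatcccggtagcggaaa
AANATGGC, the core of the YY1 site, was found in 20 of 50 mitochondrial windows (40%), compared to 6 of 53 cytosolic windows (11.3%) and 6.96% of all windows. In 18 of these 20 mitochondrial windows a match reached past the annotated start, and the letters hold an ATG, so a match can overlap the start codon. Matches are in capitals in the following stretches, of which that of Mrpl36 is on the opposite strand:
Mrps6, chr11:44778653-44778682, plus strand: aagattccatcAAGATGGCagccaagaccc
Mrps18b, chr20:2843023-2843052, plus strand: ggatgtgcgacAAGATGGCtgcctccttgc
Mrps18a, chr9:22367362-22367391, minus strand: ggtgtgttcccAAGATGGCggccctcaggg
Mrpl36, chr1:31795119-31795148, minus strand: cgtgaccctacGCCATCTTtctttctggcg
Mrpl37, chr5:127074943-127074972, minus strand: ctgcccgggcaAAGATGGCggcgtccaggt
Mrps30, chr2:52195868-52195897, minus strand: cgcggaggacaAAGATGGCggctgccaggt
Mrps6 and Mrps18b, the small subunit members with the largest differences described further on, and Mrpl37 and Mrps30, which did not pass the test, all carry this match. The 10-letter NRF1 site was found in 14% of mitochondrial, 7.55% of cytosolic and 4.25% of all windows. A 10-letter palindrome with CGCG at its centre, known from ribosomal protein promoters, was found in 7 cytosolic windows (13.2%), in 0 of 50 mitochondrial windows and in 0.373% of all windows. The Myc E-box CACGTG lay in 7.55%, 8% and 6.42% of cytosolic, mitochondrial and all windows and the TATA box TATAAA in 15.1%, 12% and 14.2%. All matches were sought on both strands and describe letters in these windows, not binding.

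**Figure D1:**
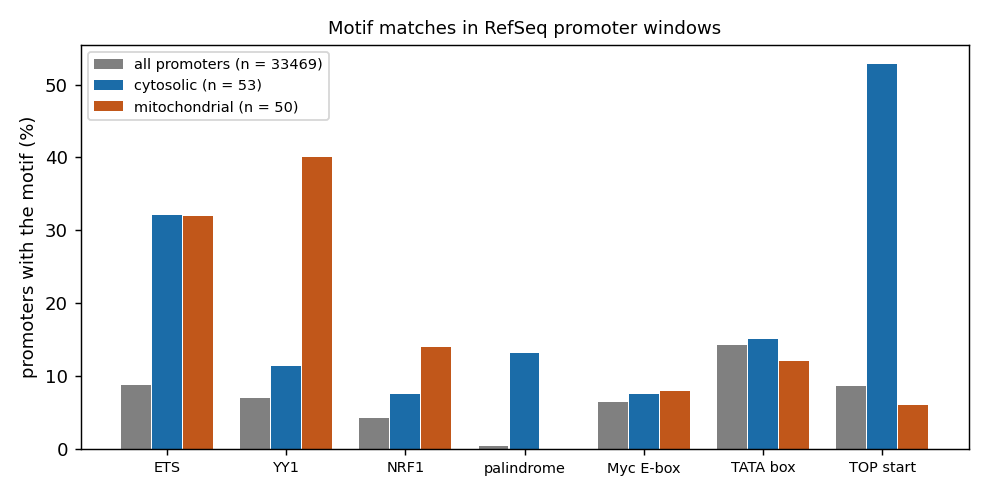
Share of RefSeq promoter windows (%) that hold each motif, for all windows, cytosolic members and mitochondrial members. TOP starts reached 52.8% in cytosolic windows against 6% in mitochondrial windows, and the YY1 core reached 40% in mitochondrial windows against 11.3% in cytosolic windows.

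The libraries held between 10457958 and 15421501 expected counts. In rEEOs, all 6 epithelial markers of a list (Epcam, Cdh1, Krt8, Krt18, Krt19, Cldn3) were higher, with summed levels of 4012 to 4622 TPM (a level scaled for transcript length and library depth) against 2.43 to 2.85 TPM in rBMSCs. The 7 mesenchymal markers summed to between 35538 and 37914 TPM in rBMSCs against 171 to 298 TPM in rEEOs. In rBMSCs most of the sum was Col1a1 and Col3a1 (means of 18818 and 10112 TPM), while Dcn had a mean of only 0.54 TPM and was under the filter. In rEEOs nearly all of it was Vim (171, 297 and 227 TPM in replicates 1, 2 and 3). Of the leukocyte list, Cd68 was read in rEEOs (31.8, 133 and 105 TPM in replicates 1, 2 and 3), while Csf1r, Adgre1, Laptm5 and Aif1 had means under 1 TPM in both cell types. The library rEEOs replicate 1 stood apart from the other rEEOs libraries. Over all genes the median SD of log2(CPM + 1) was 0.34 in rEEOs, 0.16 without replicate 1, and 0.09 in rBMSCs. Summed counts of 5 proliferation markers held were 10724 in rEEOs replicate 1 against 1424 and 2536 in replicates 2 and 3, and between 12472 and 13335 in rBMSCs. For each set, the TPM sum, the median log2 fold change and the number of calls are therefore given with and without rEEOs replicate 1. So are the log2 fold changes of the members described, while some splits of a set are given with all libraries only.

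Per unit of length, cytosolic members were far more abundant than mitochondrial members in both cell types. Among tested members the median level of a cytosolic ribosomal protein mRNA lay between 2162 and 2286 TPM in the rBMSCs libraries. It was 2186, 3263 and 2868 TPM in rEEOs replicates 1, 2 and 3. A median mitochondrial member lay between 43.1 and 46.1 TPM in rBMSCs and at 66.6, 58.9 and 58.3 TPM in rEEOs. Between 57 and 62 of the 68 tested cytosolic members exceeded 1000 TPM in a library, and no mitochondrial member did.

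Of 80 canonical cytosolic subunits listed, 65 are among the 70 cytosolic members, and 5 members lie outside that list. The sums and ratios given here are thus those of the members held, not of whole ribosomes. Summed over the 70 cytosolic members, the level was 166196, 174404 and 161325 TPM in rBMSCs replicates 1, 2 and 3 and 159941, 246355 and 215850 TPM in rEEOs replicates 1, 2 and 3. In TPM, replicates 2 and 3 of the rEEOs lay above all rBMSCs, and replicate 1 lay below them. The mean was 1.24-fold higher in rEEOs, with a 2-sided exact permutation p of 0.4 (n = 3 and 3, where 0.1 is the smallest p possible), and 1.38-fold higher without rEEOs replicate 1. Summed over the 62 mitochondrial members, the level was 3365, 3565 and 3335 TPM in rBMSCs and 4540, 4461 and 4500 TPM in rEEOs. Here the groups did not overlap, and all rEEOs libraries lay close together, at 4500 ± 39.5 TPM (SD, n = 3). The mitochondrial sum was 1.32-fold higher in rEEOs (exact permutation p = 0.1, n = 3 and 3), and 1.31-fold higher without rEEOs replicate 1. In bulk samples, fewer cells of a type and less RNA per cell cannot be told apart.

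The ratio of the cytosolic to the mitochondrial sum was 48.9 ± 0.51 in rBMSCs and 46.1 ± 10.1 in rEEOs (SD, n = 3 each; exact permutation p = 0.7). Its values in rEEOs were 35.2, 55.2 and 48.0 in replicates 1, 2 and 3, on both sides of the rBMSCs values of 49.4, 48.9 and 48.4. As a share of expected counts the sums differed more, and here the top 10 genes of a library held 21.0% to 21.7% of counts in rBMSCs but 6.72% to 9.70% in rEEOs. Cytosolic members took 3.43% ± 0.29 of counts in rBMSCs and 6.73% ± 2.26 in rEEOs, and mitochondrial members 0.153% ± 0.011 and 0.309% ± 0.041 (SD, n = 3 each). In this unit the cytosolic share of rEEOs replicate 1 (4.27%) lay above all rBMSCs (3.23% to 3.76%; exact permutation p = 0.1). With the top genes left out of the total, its share of 4.63% lay within the rBMSCs range of 4.23% to 4.90% (exact permutation p = 0.2). The order of the libraries thus depended on the unit.

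**Figure D2:**
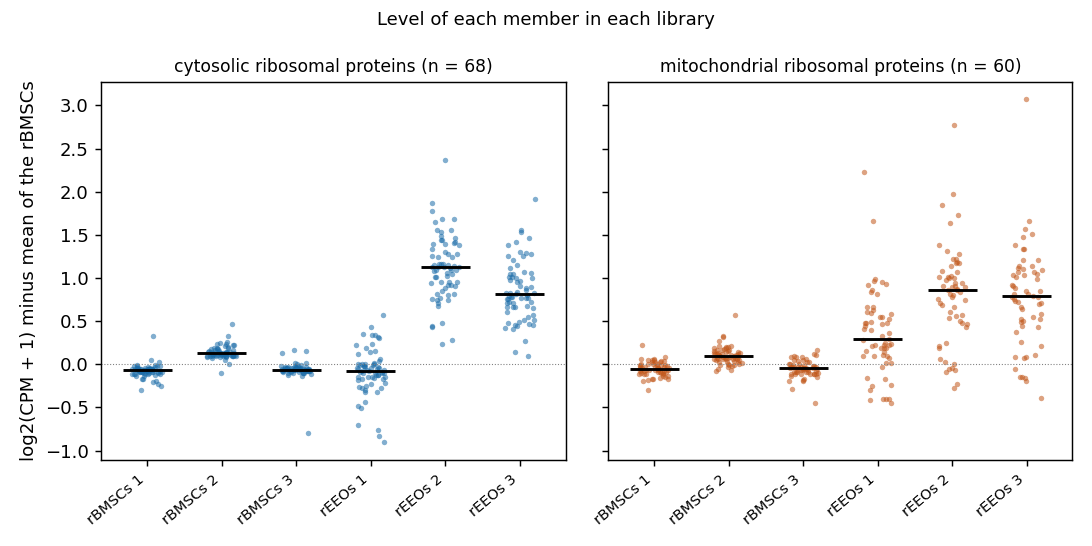
Level of each tested member in each library, as log2(CPM + 1) with TMM scaling minus the mean of the 3 rBMSCs libraries; a point is a gene and a bar is the median of the set. The cytosolic medians of rEEOs replicates 1, 2 and 3 were -0.08, 1.13 and 0.81, and the mitochondrial medians were 0.29, 0.86 and 0.79.

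Of the 68 cytosolic members that passed the filter on low counts (at least 10 counts in at least 3 libraries), 13 rose in rEEOs and 0 fell, at an adjusted p below 0.05 by edgeR's quasi-likelihood test. That is 19.1% of them, compared to 33.3% of all 10607 genes tested that were called higher and 30.2% called lower. At an unadjusted p below 0.05, 28 cytosolic members passed (41.2%, compared to 67.8% of all genes). DESeq2 tested all 70 cytosolic members and called 33 higher (47.1%) and 0 lower, compared to 29.7% and 25.5% of the genes it tested. The 33 include Rps4y2, which was under the filter of the main test. With library size only 61 of the 68 were called higher, compared to 45.6% of all genes. With the 24 top genes left out of the library size 40 were, compared to 38.1%. Limma called 10 higher and 1 lower (Rps20) on log2(TPM + 1), compared to 25.5% and 34.3%. With the pseudocount 0.1 these background shares were 25.3% and 33.5%. By log2 fold change, 67 of the 68 had a log2 fold change above 0, with a median of 0.70 against 0.08 over all genes tested, and values lay between -0.11 (Rps20) and 1.67 (Rps6). By name, 7 of the 35 tested large subunit members were called, with a median of 0.74, and 6 of the 33 small subunit members, with a median of 0.60. In the fit without rEEOs replicate 1 these calls were 35 and 32, compared to 41.9% of all genes called higher. The small subunit names include Rps19bp1, which was called and is no subunit, and the pseudogene Rps10l1. Genes with at least 1 fractional count, which marks reads shared with similar transcripts, made up 40% of cytosolic members (28 of 70), 6.45% of mitochondrial members and 11.9% of all genes. Among the 40 tested members with whole counts in all libraries, 9 were called and the median was 0.71. In the fit without rEEOs replicate 1 all 40 were called and their median was 0.99.

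For the cytosolic members, rEEOs replicate 1 lay apart from the other rEEOs libraries. In CPM scaled by TMM, replicate 1 was the lowest rEEOs library for 68 of 68 cytosolic members, compared to 41.0% of all genes. Relative to replicates 2 and 3 its level was lower by a median of -1.03 on the log2 scale, against 0 over all genes. Without it, 67 of 68 cytosolic members were called higher (all but Rps20), with a median log2 fold change of 0.99, and 41.9% of all genes were called higher and 38.6% lower. Short genes outside both sets had a like gap: in the shortest class, described further on, the median log2 difference from rBMSCs was 0.18, 0.93 and 0.92 in rEEOs replicates 1, 2 and 3. When any other library was left out, the members called higher numbered 0, 3 and 0 without rBMSCs replicates 1, 2 and 3, and 5 and 1 without rEEOs replicates 2 and 3, all of them among the 13. Between 26.5% (without rBMSCs replicate 1) and 32.1% (without rEEOs replicate 2) of all genes were called higher in these fits, with 27.1%, 26.6% and 29.7% in the others. The 5 proliferation markers were highest in replicate 1 among the rEEOs, and their part in these values was not tested.

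**Figure D3:**
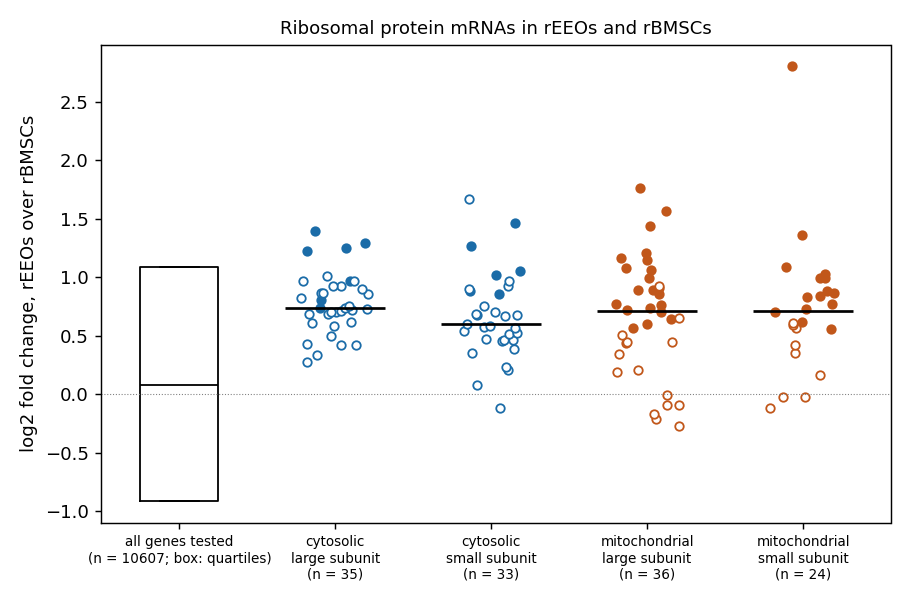
Log2 fold change (rEEOs over rBMSCs, edgeR) of each tested member by the subunit its name gives, with filled points for an adjusted p below 0.05, a bar for the median, and a box for the quartiles of all 10607 genes. No filled point lies below 0, and 36 of 60 mitochondrial points are filled against 13 of 68 cytosolic points.

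Among the large subunit proteins of the cytosolic ribosome, Rpl37, a zinc-binding protein, had the largest called difference. Its level was 3315, 3456 and 3216 TPM in rBMSCs and 4616, 7771 and 6610 TPM in rEEOs. All rEEOs libraries lay above all rBMSCs libraries, with replicate 1 the lowest of the rEEOs. The log2 fold change was 1.40 (SE 0.36, adjusted p = 0.0145), and 1.73 without rEEOs replicate 1. Its counts were fractional in all 6 libraries, and by gene ID the row is Rpl37l1 in RefSeq, so it may share reads with near-identical copies.

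Rpl36a, which lines the exit site of the ribosome, had 513, 568 and 507 TPM in rBMSCs and 689, 1270 and 1054 TPM in rEEOs. It rose by a log2 fold change of 1.29 (SE 0.36, adjusted p = 0.0197), and by 1.63 without that library. Rpl26, at the mouth of the exit tunnel and also known to bind p53 mRNA, had 2569, 2637 and 2460 TPM in rBMSCs and 3378, 5481 and 4868 TPM in rEEOs. The groups of both genes did not overlap, and Rpl26 rose by 1.23 (SE 0.33, adjusted p = 0.0178), or 1.54 without rEEOs replicate 1.

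Rpl18 rose by a log2 fold change of 1.25 (SE 0.43, adjusted p = 0.0391), with a wide spread among the rBMSCs libraries. Its level was 1683, 1701 and 730 TPM in rBMSCs and 2002, 2898 and 2814 TPM in rEEOs, so that rBMSCs replicate 3 stood at 0.457 times the median of its group. Without rBMSCs replicate 3 the log2 fold change was 0.95 and the adjusted p was 0.0877, in a fit that called 0 cytosolic members. Without rEEOs replicate 1 the log2 fold change was 1.55. Rpl3, a core protein near the peptidyl transferase centre, rose by 0.74 (SE 0.27, adjusted p = 0.0478), from 1788 ± 66.2 to 2417 ± 384 TPM (SD, n = 3 each). Rpl7 rose by 0.80 (SE 0.29, adjusted p = 0.0489) and Rpl38, known for a part in the translation of Hox mRNAs, by 0.97 (adjusted p = 0.0150). Without rEEOs replicate 1 the values of Rpl3, Rpl7 and Rpl38 were 0.97, 1.07 and 1.23. Rpl38 was named after its values were seen, as were Fau, Rps21 and Rps7 in the next paragraph and Rps19 after it.

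Among the small subunit proteins, Rps28 had 2397, 2612 and 2206 TPM in rBMSCs and 3122, 4898 and 4501 TPM in rEEOs. All rEEOs libraries lay above all rBMSCs libraries, and the log2 fold change was 1.27 (SE 0.35, adjusted p = 0.0189), and 1.6 without rEEOs replicate 1. Fau, which encodes a ubiquitin-like protein fused to a small subunit protein, rose by 1.05 (adjusted p = 0.0474), Rps21 by 1.02 (adjusted p = 0.0468) and Rps7 by 0.88 (adjusted p = 0.0409). For these 3, the values without that library were 1.40, 1.36 and 1.16. Rps19bp1, a nucleolar binding partner of Rps19 that is no ribosome subunit but has a matching symbol, rose by 1.47 (SE 0.46, adjusted p = 0.0307), from 10.3 ± 1.87 to 21.5 ± 6.99 TPM (SD, n = 3 each), and by 1.84 without rEEOs replicate 1. The row named Rps19 was listed at only 76.3 to 106 TPM in rBMSCs and 86.3 to 125 TPM in rEEOs, with fractional counts in all libraries. Its gene ID did not match RefSeq, so these values may not be the full level of Rps19.

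Rps6, the subunit protein phosphorylated by S6 kinases downstream of mTORC1, had the largest log2 fold change of the cytosolic members but did not pass the test. Its level was 315, 370 and 402 TPM in rBMSCs and 222, 1330 and 1027 TPM in rEEOs. Replicate 1 of the rEEOs lay below all rBMSCs, and replicates 2 and 3 lay far above them. The log2 fold change was 1.67 (SE 0.70, adjusted p = 0.0775), and 2.18 without rEEOs replicate 1 (adjusted p = 6.68e-05). Its counts were fractional in all 6 libraries, and the RefSeq window shown above has no TOP tract within 2 bases of the annotated start.

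The most abundant cytosolic members over all libraries were Rps29, Rpl41, Rps18, Rps2 and Rps27. Rps29, at 8150 ± 468 TPM in rBMSCs and 9423 ± 1831 TPM in rEEOs (SD, n = 3 each), showed a log2 difference of 0.68 (adjusted p = 0.111). Rpl41, the shortest ribosomal protein, had one of 0.96 (adjusted p = 0.0788), Rps18 one of 0.93 (adjusted p = 0.0788) and Rps27 one of 0.97 (adjusted p = 0.0589). None of these 4 passed the test with all libraries, and each passed it without rEEOs replicate 1, at log2 fold changes between 0.99 (Rps29) and 1.34 (Rpl41). Rps2, described next, had 0.31 in that fit (adjusted p = 0.0497).

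The smallest differences were those of Rps20, Rps2, Rps12, Rps10l1, Rpl32 and Rpl6. Rps20, which lies in the head of the small subunit, had 5242, 5473 and 5135 TPM in rBMSCs and 2924, 4178 and 4067 TPM in rEEOs. In TPM all rEEOs libraries lay below all rBMSCs libraries, whereas on the count scale its log2 fold change was -0.11 (SE 0.30, adjusted p = 0.755) and changed sign with the scaling, to 0.25 with library size only and to 0.18 without rEEOs replicate 1. Rps2, near the mRNA entry site, had 5931 ± 126 TPM in rBMSCs and 5032 ± 628 TPM in rEEOs (SD, n = 3 each) and a log2 fold change of 0.08 (adjusted p = 0.815). For Rps12, Rps10l1, Rpl32 and Rpl6 log2 fold changes lay between 0.20 and 0.33, with adjusted p-values between 0.272 and 0.546, and between 0.45 and 0.61 without rEEOs replicate 1, where all 4 passed the test. By gene ID Rps10l1 is a pseudogene in RefSeq.

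Paralogs and the stalk gave further pairs. Rps27l, a paralog of Rps27 known as a p53 target, rose by 0.85 (SE 0.27, adjusted p = 0.0308), from 192, 251 and 228 TPM in rBMSCs to 275, 352 and 338 TPM in rEEOs, without overlap, and by 1.11 without rEEOs replicate 1. Rpl22, Rpl10 and Rpl39 had log2 fold changes of 0.92, 0.72 and 0.87 (adjusted p between 0.0624 and 0.225), and Rps4x one of 0.39 (adjusted p = 0.214). Without rEEOs replicate 1 these 4 had 1.26, 1.03, 1.34 and 0.61. Rps4y2, the paralog of Rps4x, was under the filter, with 0 counts in all rBMSCs libraries and 37, 2 and 12 counts in rEEOs replicates 1, 2 and 3. Against a floor of 3 counts per library, which covers counting error only, the mean of the 3 rEEOs libraries is at least 5.03-fold higher, and that of replicates 2 and 3 at least 2.59-fold. The 2 counts of replicate 2 lie under this floor. In fits without the filter, by DESeq2 and by edgeR on every gene with at least 1 count, Rps4y2 was called higher in rEEOs. Rpl39l, a paralog of Rpl39, had 0 counts in rBMSCs and in rEEOs replicate 1, and 8 and 5 counts in rEEOs replicates 2 and 3. Of the stalk, which recruits elongation factors, the base Rplp0 and the acidic protein Rplp2 had log2 fold changes of 0.42 (adjusted p = 0.187) and 0.75 (adjusted p = 0.0944), and of 0.63 and 1.07 without rEEOs replicate 1.

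Of the 60 mitochondrial ribosomal proteins that passed the filter, 36 rose in rEEOs and 0 fell (60.0%, compared to the 33.3% and 30.2% of all genes given above). Their median log2 fold change was 0.71, and 51 of 60 were above 0. By name, the large subunit had 21 of 36 members called and the small subunit 15 of 24, each with a median of 0.71. Both Mrps18a, a large subunit protein, and the Mrps36 row, described further on, are among the 15. In the fit without rEEOs replicate 1, 28 large and 20 small subunit members were called, compared to 41.9% of all genes. At an absolute log2 fold change above 1, 12 mitochondrial and 8 cytosolic members were called, compared to 25.1% of all genes higher and 21.6% lower. These were 24 mitochondrial and 30 cytosolic members without rEEOs replicate 1, compared to 3012 of 10607 genes higher and 2762 lower. Above 2, only Mrps6 was called with all libraries, compared to 16.3% and 13.3%. In CPM, all rEEOs libraries lay above all rBMSCs libraries for 42 of 60 mitochondrial and 11 of 68 cytosolic members, compared to 36.9% of all genes. They lay below for 2 mitochondrial and 0 cytosolic members, compared to 35.9%.

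Leaving out single libraries also changed the number of mitochondrial calls. Replicate 1 of the rEEOs was the lowest rEEOs library for 54 of 60 members, by a median of -0.49 on the log2 scale over all 60, and without it 48 were called higher, with a median of 0.89. Without rBMSCs replicates 1, 2 and 3 there were 22, 27 and 22 calls, and without rEEOs replicates 2 and 3 there were 29 and 25. Of the 36 calls, 22 held whichever library was left out, and of the 13 cytosolic calls 0 did. The like share over all called genes was not computed, so these counts cannot be set against genes in general. Mrpl49, Mrps2 and Mrps27 were highest in rEEOs replicate 1, and none of them was called.

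Mrps6, a protein of the platform of the small subunit, had the largest difference of all 128 tested members. Its level was 18.7, 20.6 and 18.7 TPM in rBMSCs and 99.7, 101 and 131 TPM in rEEOs. The groups were far apart, and the spread within each was small by comparison. The log2 fold change was 2.80 (SE 0.25, adjusted p = 0.000146), and 3.03 without rEEOs replicate 1. Mrps18b, a small subunit paralog of the bacterial protein S18, rose by 1.36 (SE 0.22, adjusted p = 0.00199), from 46.3, 54.0 and 55.5 TPM to 104, 118 and 104 TPM, and by 1.56 without rEEOs replicate 1. Its paralog Mrps18a, which sits in the large subunit despite its name, rose by 0.77 (SE 0.22, adjusted p = 0.0214), from 53.6 ± 7.23 to 74.4 ± 3.47 TPM (SD, n = 3 each), and by 0.94 without that library.

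In the large subunit the largest differences were those of Mrpl38, Mrpl43 and Mrpl52, which have no bacterial counterpart, and Mrpl36, a small zinc-binding protein. Mrpl38 had 23.0, 27.6 and 24.3 TPM in rBMSCs and 86.6, 67.5 and 62.9 TPM in rEEOs. It rose by a log2 fold change of 1.77 (SE 0.15, adjusted p = 0.000139), with no overlap. Mrpl43 had 80.2, 82.4 and 67.4 TPM in rBMSCs and 160, 217 and 163 TPM in rEEOs. It rose by 1.57 (SE 0.28, adjusted p = 0.00315), and Mrpl52 rose by 1.44 (SE 0.25, adjusted p = 0.00286), from 80.6 ± 3.97 to 175 ± 22.7 TPM (SD, n = 3 each). Mrpl36 rose by 1.20 (SE 0.27, adjusted p = 0.00858), from 15.3 ± 1.94 to 28.5 ± 2.55 TPM, with fractional counts in all libraries. Without rEEOs replicate 1 the log2 fold changes of Mrpl38, Mrpl43, Mrpl52 and Mrpl36 were 1.82, 1.80, 1.69 and 1.43. These members, Mrps6 and Mrps18b were called higher in every alternative fit in which they were tested, as were 16 of the 36 in all. The like share over all called genes was not computed.

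**Figure D4:**
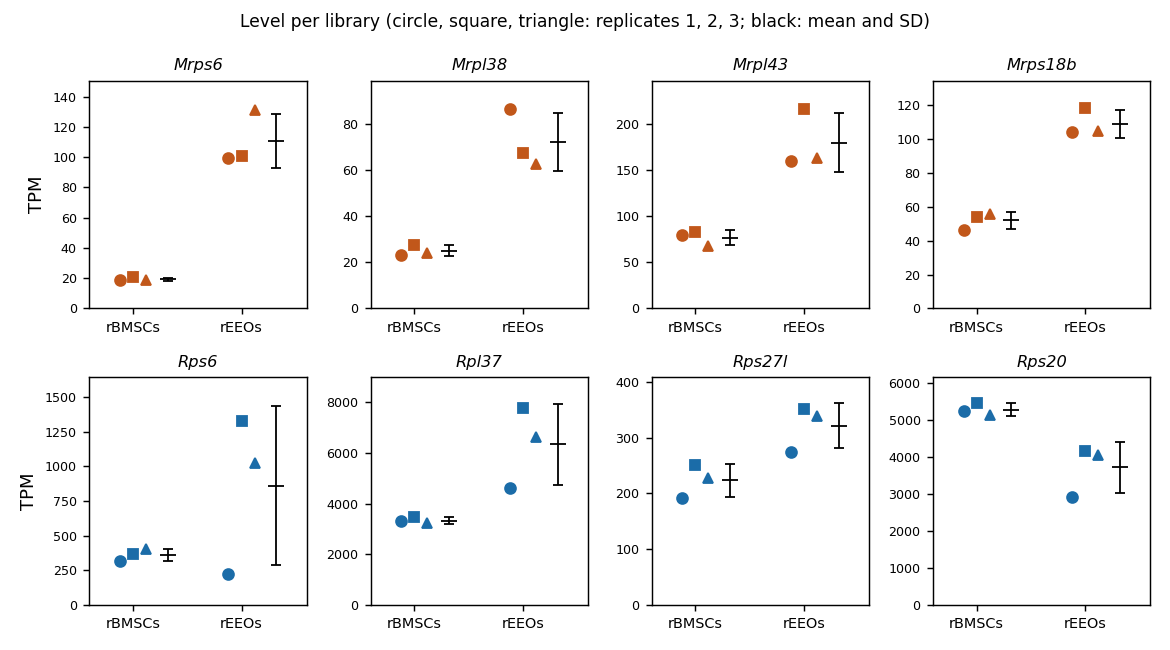
TPM per library of 8 members, with replicates 1, 2 and 3 as circle, square and triangle and the mean and SD (n = 3) in black. The rEEOs lie above the rBMSCs in Mrps6, Mrpl38, Mrpl43, Mrps18b, Rpl37 and Rps27l, below them in Rps20, and on both sides of them in Rps6.

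The most abundant mitochondrial members did not all rise. Mrpl54 rose from 190 ± 7.45 to 276 ± 37.8 TPM, by a log2 fold change of 0.85 (SE 0.19, adjusted p = 0.00874), and Mrps21 from 135 ± 21.8 to 209 ± 5.70 TPM, by 0.99 (SE 0.24, adjusted p = 0.0104; SD, n = 3 each). Mrpl23, near the exit tunnel, had 225 ± 4.58 TPM in rBMSCs and 240 ± 16.2 TPM in rEEOs, and its log2 fold change of 0.44 did not pass the test (adjusted p = 0.119). Mrpl17 had 248 ± 13.0 and 222 ± 14.2 TPM and a log2 fold change of 0.21 (adjusted p = 0.381). Without rEEOs replicate 1 the log2 fold changes of Mrpl54 and Mrps21 were 1.03 and 1.17. Both Mrpl23 and Mrpl17 passed the test in that fit, at 0.65 (adjusted p = 0.00219) and 0.38 (adjusted p = 0.0276).

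At the other end stood Mrpl45, Mrpl37, Mrpl19, Mrps30, Mrpl27 and Mrpl13, with log2 fold changes between -0.27 and -0.09, none of which passed the test. Mrpl45, which tethers the mitoribosome to the inner membrane, had 38.8, 40.5 and 38.8 TPM in rBMSCs and 30.2, 24.4 and 27.3 TPM in rEEOs. All rEEOs libraries lay below all rBMSCs libraries in TPM and in CPM, and the log2 fold change was -0.27 (SE 0.14, adjusted p = 0.117). Mrpl37 was the only other mitochondrial member below all rBMSCs in CPM, at a log2 fold change of -0.21 (SE 0.13, adjusted p = 0.189). Without rEEOs replicate 1 the values of these 6 members lay between -0.21 (Mrpl37) and 0.076 (Mrpl13), and none passed the test. With library size only, all 6 members had a log2 fold change above 0. Limma on log2(TPM + 1) called Mrpl13, Mrpl19, Mrpl45 and Mrps30 lower. Mrpl30 and Mrps28 were under the filter, at under 1 TPM in every library. By gene ID the Mrps36 row is Kgd4 in RefSeq, a subunit of the 2-oxoglutarate dehydrogenase complex, and it rose by 0.61 (adjusted p = 0.0332), or 0.79 without rEEOs replicate 1.

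The 2 sets were thus alike in their median, at log2 fold changes of 0.70 and 0.71, a difference of -0.01. Without rEEOs replicate 1 the medians were 0.99 and 0.89. The spread between members was wider in the mitochondrial set, with an SD of log2 fold changes of 0.53 compared to 0.32. These medians depend on the scaling, which moved that of all genes from 0.08 to 0.46 with library size only and to 0.22 with those top genes left out. Relative to all genes, the cytosolic median was 0.63 higher and the mitochondrial median 0.64 higher.

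Transcript length moved with these differences. The median effective length, relative to the median gene, was 0.116 for cytosolic and 0.314 for mitochondrial members, compared to 1.02 over all genes tested. Among genes outside both sets, the median log2 fold change was 0.75 in the shortest class (up to 0.1 times the median gene, n = 96), 0.47 between 0.2 and 0.4 (n = 804) and -0.42 above 1.6 (n = 2684). This trend also differed between the rEEOs libraries, with medians of 0.18, 0.93 and 0.92 in the shortest class and of -0.12, -0.65 and -0.62 in the longest, in replicates 1, 2 and 3 relative to the rBMSCs mean. Cytosolic members of the shortest class had a median of 0.86 (n = 28), and mitochondrial members between 0.2 and 0.4 had one of 0.76 (n = 27). Within the sets, Spearman's rho between log2 length and log2 fold change was -0.40 over 68 cytosolic and -0.32 over 60 mitochondrial members, which share libraries and are not independent.

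When a trend on length was removed from each library, the cytosolic median was 0.04, compared to 0.05 over all genes, and the mitochondrial median was 0.31. Of the cytosolic members, 4 were then called higher (Rpl26, Rpl36a, Rpl37 and Rps28) and 4 lower (Rps10l1, Rps12, Rps20 and Rps29), compared to 34.7% and 31.2% of all genes. Of the mitochondrial members, 20 were called higher, all among the 36 above, and 7 lower (Mrpl13, Mrpl19, Mrpl27, Mrpl37, Mrpl45, Mrps24 and Mrps30). Mrps6 kept a log2 fold change of 2.48 and Mrpl38 one of 1.47. The source of the trend on length was not tested.

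**Figure D5:**
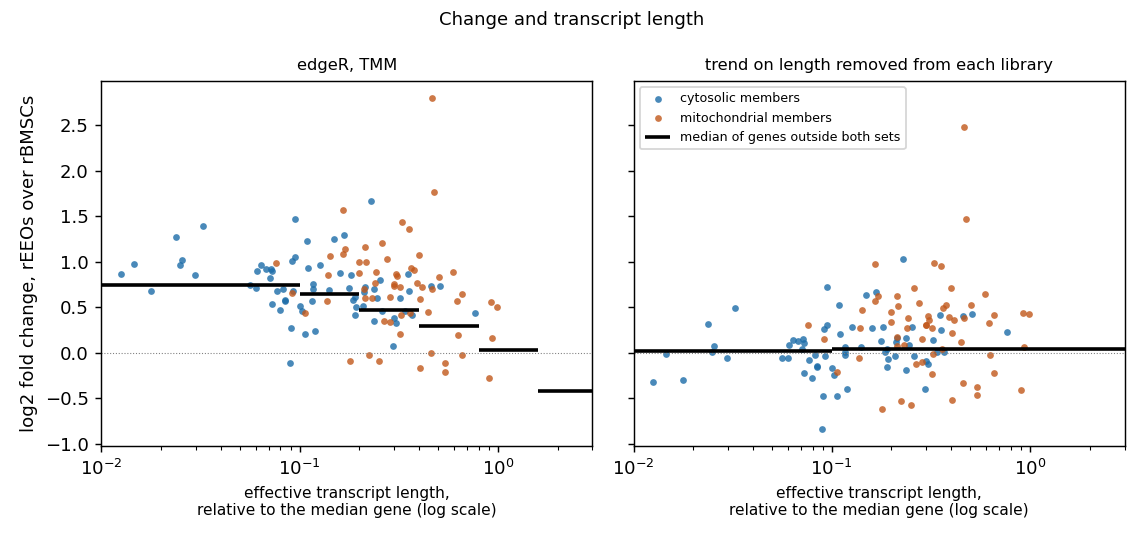
Log2 fold change (rEEOs over rBMSCs) against effective transcript length relative to the median gene (log axis), before (left) and after (right) a trend on length was removed from each library; points are members and bars are medians of genes outside both sets in a length class. On the left the bars fall from 0.75 to -0.42 with length and cytosolic members lie at short lengths, and on the right the bars lie near 0 and Mrps6 stays at 2.48.

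Of 41 tested assembly and translation factors of the mitoribosome, 23 rose (56.1%) and 2 fell (4.88%), compared to 33.3% and 30.2% of all genes, with a median log2 fold change of 0.66. With single libraries left out there were 15 to 29 higher and 1 to 3 lower, with the most without rEEOs replicate 1. Ngrn, needed for the stability of mitochondrial ribosomal RNA, rose by 1.88 (SE 0.29, adjusted p = 0.00169), and Mterf3 fell by 0.82 on the log2 scale (adjusted p = 0.0029). Of 18 mitochondrial aminoacyl-tRNA synthetases and related genes 14 rose (77.8%) and 0 fell, with a median of 0.80, and 10 to 15 rose with single libraries left out. Vars2, which charges valine tRNA, rose by 2.29 (SE 0.17, adjusted p = 8.37e-05). Of the 3 mitoribosome proteins held whose names lie outside the Mrp rule, Aurkaip1 rose by 1.00 (adjusted p = 0.00801), while Dap3 and Gadd45gip1 had log2 fold changes of 0.12 and 0.41 and were not called. The mRNAs that mitoribosomes translate, encoded by the mitochondrial genome, were not analysed here.

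Of 104 tested ribosome biogenesis genes, 25 rose (24.0%) and 13 fell (12.5%), again compared to 33.3% and 30.2% of all genes (median 0.15). With single libraries left out, 13 to 43 rose and 8 to 30 fell, of which 43 and 30 are without rEEOs replicate 1, where 41.9% and 38.6% of all genes did. Ddx52, a helicase of small subunit processing, rose by 2.98 (SE 0.33, adjusted p = 0.000381) and Tcof1, a nucleolar factor of ribosomal RNA transcription, fell by 2.01 (SE 0.37, adjusted p = 0.00377). Of 41 initiation factors 15 rose (36.6%) and 6 fell (14.6%, median 0.35), with 8 to 23 and 4 to 9 when single libraries were left out. Of 14 elongation and termination factors 3 rose and 3 fell (21.4% each, median 0.14), with 3 to 6 and 1 to 3. Eif4a2, a helicase of the cap-binding complex, rose by 2.70 (SE 0.46, adjusted p = 0.00255), and Eif2b2, of the exchange factor of eIF2, fell by 1.80 on the log2 scale (adjusted p = 5.22e-05).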

How the data were processed

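Expression was measured by 150-bp single-end RNA-seq on the BGISEQ platform in 3 rEEOs and 3 rBMSCs libraries. The authors trimmed reads with TrimGalore, aligned them with Bowtie2 2.2.5 and estimated expression with RSEM, and the submitters' processing notes name Rnor_6.0. The table deposited by the authors holds an expected count (an estimated count that need not be whole), a TPM and an FPKM per gene and library. FPKM was used for relative effective lengths only. The copy analysed here holds 13728 genes and between 81.3% and 82.7% of each library's TPM; other genes were not analysed here.

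After rounding, the 10607 genes that reached 10 counts in 3 or more libraries were tested with edgeR 4.0.16 (TMM, quasi-likelihood test, cell type as the only term, Benjamini-Hochberg adjustment over all genes) in R 4.3.3. The test was also run on simulated counts, in which both cell types had the same dispersion and no library stood apart. That run therefore does not cover the unlike spreads of these data. The standard error is the log2 fold change divided by the square root of F. With totals of 10457958 to 15421501 counts, a floor of 3 counts per library corresponds to 0.225 CPM in rBMSCs and 0.230 CPM in rEEOs. Alternatives were DESeq2 1.42.0, limma 3.58.1 on log2(TPM + 1) or log2(TPM + 0.1), other scalings and filters, removal of a lowess trend (span 0.3) on length, leaving out each library and a replicate block. Single sums were compared by exact permutation tests. Promoters came from RefSeq (GRCr8), and 129 of 132 members matched RefSeq by ID.

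The members, gene lists and tests were chosen with earlier results of these data known. Named by rule were, in each set, the 6 highest and the 6 lowest members by log2 fold change (mean of 20 TPM or more in the higher cell type), the 5 most abundant, listed paralogs, stalk proteins and members under the filter, and the largest and smallest changes in related lists. Python 3.11.15 with pandas 2.3.3, numpy 2.4.6 and matplotlib 3.10.9 was used.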

Additional observations from a re-analysis of the deposited data

How the results depend on the processing

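The numbers of calls depended on the scaling and on length. Cytosolic members called higher (13) were 61 with library size only and 40 with the top genes left out of the library size. They were 33 of 70 by the DESeq2 Wald test and 4 with the length trend removed. At an absolute log2 fold change above 1 and 2 they were 8 and 0. Called lower were 1 by limma with either pseudocount and 4 with the length trend removed. Mitochondrial members called higher (36) were 49 with library size only, 47 with the top genes left out, 38 by the DESeq2 Wald test and 31 by limma on log2(TPM + 1). They were 20 with the length trend removed, and 12 and 1 at an absolute log2 fold change above 1 and 2. Called lower were 4 by limma on log2(TPM + 1), 3 on log2(TPM + 0.1) and 7 with the length trend removed. In the related lists together, 91 of 262 genes were higher (34.7%) and 43 lower (16.4%), compared to 33.3% and 30.2% of all genes. Higher were 155 with library size only, compared to 45.6% of all genes. By limma 55 were higher with either pseudocount, compared to 25.5% and 25.3% of all genes. Above 1 and 2 there were 36 and 10, compared to 25.1% and 16.3%. Lower were 19 with library size only, compared to 2189 of all 10607 genes, and 15 and 2 above 1 and 2, compared to 21.6% and 13.3%. With the length trend removed, the cytosolic median minus that of all genes was -0.0053 and the mitochondrial one 0.26. The summed cytosolic level was 1.96-fold higher as a share of counts and 1.67-fold without the top genes, and the mitochondrial one 2.02-fold and 1.72-fold.

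Leaving out each library in turn gave 0 to 67 cytosolic and 22 to 48 mitochondrial members higher and 0 lower in every case, and 56 to 134 related genes higher and 28 to 67 lower. In these fits 26.5% to 41.9% of all genes were called higher, and 2486 to 4098 of 10607 lower. The cytosolic median minus all genes lay between 0.40 and 0.90, the mitochondrial one between 0.55 and 0.80, and their difference between -0.14 and 0.10. The fold of the cytosolic sum lay between 1.12 and 1.38, of the mitochondrial sum between 1.299 and 1.343, and of their ratio between 0.851 and 1.06.

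Of the 43 named members tested, those not called could change sign. With library size only the log2 fold change was 0.28 for Mrpl27, 0.25 for Rps20, 0.28 for Mrpl13, 0.17 for Mrpl37, 0.26 for Mrps30, 0.21 for Mrpl19 and 0.10 for Mrpl45. With the top genes left out it was 0.047 for Mrpl27, 0.017 for Rps20, 0.048 for Mrpl13 and 0.022 for Mrps30. By limma on log2(TPM + 1) and on log2(TPM + 0.1) it was -0.17 and -0.17 for Rpl32, -0.16 and -0.16 for Mrpl17, -0.18 and -0.18 for Rps12, -0.24 and -0.24 for Rps2, and -0.11 and -0.11 for Rps10l1. With the length trend removed it was -0.21 for Mrpl23, -0.32 for Rpl39, -0.47 for Rpl32, -0.13 for Rpl6, -0.23 for Mrpl17, -0.084 for Rps4x, -0.056 for Rplp2, -0.48 for Rps12, -0.40 for Rps2, -0.30 for Rps29 and -0.39 for Rps10l1. Without each library in turn it lay between -0.23 and 0.017 for Mrpl27 (above 0 without rEEOs replicate 1 or rBMSCs replicate 2), between -0.29 and 0.18 for Rps20 and between -0.18 and 0.076 for Mrpl13 (above 0 without rEEOs replicate 1), and between -0.11 and 0.31 for Rps2 (below 0 without rEEOs replicate 2). The cause was not tested. Of the other comparisons of a named member with an alternative, 536 kept direction and side of the threshold, 59 passed it newly and 55 no longer passed it.

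Same-numbered libraries had correlations of 0.17, 0.19 and -0.17 of their deviations from the group means. With 3 libraries per cell type these deviations depend on each other, so the values cannot show whether the replicate numbers pair the libraries. With the replicate block, 12 cytosolic and 32 mitochondrial members were called higher, compared to 30.2% of all genes. With 3 libraries per cell type and counts under 10 in most libraries, Rps4y2, Rpl39l, Mrpl30 and Mrps28 were left undecided by the main test. Rps4y2 was called higher in rEEOs by the DESeq2 Wald test (log2 fold change 6.36). It was also called higher by edgeR on every gene with at least 1 count (6.96).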

Other observations

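Of 21 tested cytosolic aminoacyl-tRNA synthetases and their partners, 13 fell in rEEOs (61.9%) and 5 rose (23.8%), compared to 30.2% and 33.3% of all genes, with a median log2 fold change of -0.58. With single libraries left out, 9 to 14 fell and 2 to 7 rose. Eprs, which charges glutamate and proline tRNAs, had 308 ± 10.9 TPM in rBMSCs and 104 ± 42.0 TPM in rEEOs (SD, n = 3 each), and fell by 1.41 on the log2 scale (adjusted p = 0.00103, edgeR). Wars, the tryptophan enzyme, fell by 1.52 (adjusted p = 0.00428), and Qars, the glutamine enzyme, rose by 0.79 (adjusted p = 0.00263). Their mitochondrial counterparts, given above, had 14 genes higher and 0 lower.

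Of 21 tested genes of growth control, 6 rose and 6 fell (28.6% each), compared to 33.3% and 30.2% of all genes, with a median of 0.02. With single libraries left out, 5 to 10 rose and 5 to 8 fell. The 10 and 8 are without rEEOs replicate 1, where 41.9% and 38.6% of all genes did. As a list these genes thus lay near the share of all genes, and the following were its largest changes. Mycn, a Myc family factor known to drive ribosome production, was at 0 counts in all rBMSCs libraries and at 127 ± 43.8 TPM in rEEOs (SD, n = 3), at least 1237-fold higher against a floor of 3 counts per library. Rps6ka1, an S6 kinase of the RSK family, rose by 5.69 (SE 0.15, adjusted p = 4.59e-06), and Akt1 fell by 1.70 on the log2 scale (adjusted p = 0.000177).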
